A study of Homo sapiens with 6 samples.

Results

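The regions described here are 2979 listed YAP peaks that overlap no listed peak of TEAD or of a tagged YAP mutant. The YAP list holds 3867 peaks, and the 3 lists hold 22804 in all. They come from chromatin immunoprecipitation with sequencing (ChIP-seq) in CClp1, an established human cholangiocarcinoma cell line, with 1 library for each group. The YAP and TEAD groups are named by their antibodies, and the series' design text gives TEAD1 as the target of the TEAD antibody. The other list is of the group Flag-Bio-YAP5SA, a tagged YAP in which serines phosphorylated by LATS kinases are replaced, called YAP5SA from here on. All groups share the cell line and 10 min of fixation in 1% formaldehyde, and the sonicated fragments measured about 250 bp. The labels name no drug treatment, and they do not say how YAP5SA was introduced or whether its cells are 1 clone. Libraries of IgG, input DNA and BirA also belong to the series but were not analysed here, so no background measured in controls stands beside the values. With 1 library per group, nothing below has a replicate error and no difference between lists was tested as a difference between conditions.

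YAP is a transcriptional co-activator that the Hippo kinases MST and LATS keep out of the nucleus by phosphorylation. It has no DNA-binding domain and reaches DNA through partners, of which the TEAD proteins are the best known. TEAD factors recognise a short motif, and the sites they occupy lie mostly in enhancers, often beside motifs of the AP-1 factors. In the bile duct lineage the pathway governs growth, and a YAP mutant that LATS cannot phosphorylate stays active. A YAP peak with no TEAD peak is therefore a site at which no peak was listed for an expected DNA-binding partner, here TEAD1 by the design text. That is why these regions are looked at here. No list is named for another TEAD protein, so such a site may still hold one.

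The members were chosen by position alone, from the starts and ends of the listed peaks, and no test was made on the overlap that chose them. Of the 3867 YAP peaks, 3602 lay on chromosomes 1 to 22, and 3482 of these were at most 1000 bp wide. Of those, 3156 lay over 2 Mb from any peak-free stretch of over 2.5 Mb between listed peaks of the 3 lists. The last step leaves out peaks that crowd beside such gaps. It did not count the empty sequence before a chromosome's first listed peak. Lone peaks beside such sequence were kept, as chr14:19041039-19041990 was. These 3156 eligible peaks were then divided by overlap of 1 bp or more: 96 met a TEAD peak alone, 22 a YAP5SA peak alone, 59 both, and 2979 neither. The last group, 94.4% of the eligible peaks (95% Clopper-Pearson interval 93.5 to 95.2), is called the lone YAP peaks, and the other 177 the shared YAP peaks. Under the same filters 93.3% of TEAD peaks and 94.2% of YAP5SA peaks overlapped no peak of the other lists, so the size of the lone share did not set the YAP list apart. All intervals count each peak as an independent draw and reflect counting error alone.

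The borders of the rule were narrow at some points. The lone peak nearest to a TEAD peak, chr4:134657979-134658241, lay 23 bp from it, and only 20 bp from a YAP5SA peak. The shared peak with the least overlap, chr8:11211444-11211774, met a YAP5SA peak over 15 bp. At the other limits, the widest lone peak measured 967 bp and the narrowest one left out for width 1039 bp. The lone peak nearest to a peak-free stretch between listed peaks was 2.06 Mb from it. The farthest one left out for this was 1.985 Mb away.

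The lone YAP peaks were weak by the caller's own measure. Each peak carries a score deposited by the authors, between 50 and 3100 over the lists, which from its range is probably 10 times the negative log10 of a p-value. The median score of the lone peaks was 57.6 (interquartile range 53.6 to 63.4, highest 274), close to the lowest score listed. Shared YAP peaks had a median of 63.7 (54.1 to 77.4, highest 528). Most of the interquartile range of the lone peaks thus lay inside that of the shared peaks, which reached higher. Of the lone peaks 62.1% (60.4 to 63.9) scored below 60, against 41.8% (34.5 to 49.4) of the shared peaks. Lone YAP5SA peaks scored as low, with a median of 56.5, 61.9% (60.8 to 62.9) below 60 and 1.37% (1.13 to 1.65) from 100 up, so low scores did not set the lone YAP peaks apart from them. Among lone YAP peaks 68, 2.28% (1.78 to 2.88), scored 100 or more, while 24 shared peaks, 13.6% (8.88 to 19.5), did. Lone peaks made up 68 of 92 eligible peaks from 100 up (73.9%, 63.7 to 82.5) and 16 of 26 from 150 up (61.5%, 40.6 to 79.8). Both shares were majorities but lay below the 94.4% over all eligible peaks. Among eligible peaks under 55 they made up 95.7% (94.3 to 96.8).

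Score did not rise steadily with width among the lone YAP peaks. Their median width was 299 bp (interquartile range 253 to 336), not far above the fragment length, and 342 bp (290 to 437) for the shared YAP peaks. Spearman's rho between score and width was -0.10 over the 2979 lone peaks and 0.39 over the 177 shared peaks. For TEAD peaks with no YAP or YAP5SA peak it was 0.74 (7884 peaks) and for YAP5SA peaks with no TEAD or YAP peak 0.31 (8299 peaks). These coefficients are across peaks of 1 library each, which share its depth, and are given as descriptions. In the class of 301 to 350 bp the median score was 54.1 for lone YAP peaks and 161 for lone TEAD peaks; from 501 to 700 bp the medians were 63.9 and 390. A wide peak was thus a strong one in the TEAD list, and in the lone YAP peaks it mostly was not. The median of lone YAP peaks was lowest at middling widths and rose towards both extremes. It was 90.2 up to 150 bp and 72.8 over 700 bp. The low rho therefore does not show that width and score were unrelated.

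**Figure D1:**
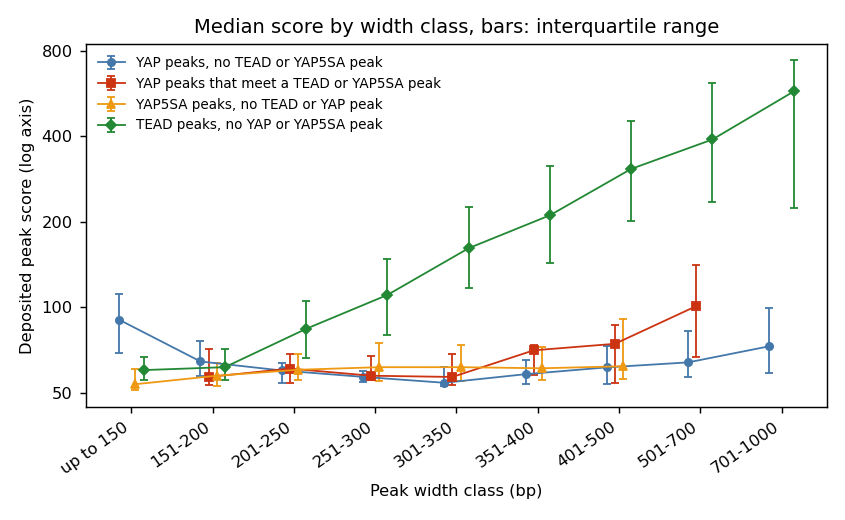
Median deposited score (log axis) of peaks by width class in bp for 4 sets of peaks, with bars for the interquartile range and classes of under 10 peaks left out. Lone TEAD peaks climb from 60 to 575 with width, while lone YAP peaks start at 90.2, dip to 54.1 in the class of 301 to 350 bp and end at 72.8.

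Scores of the lone YAP peaks repeated to the last digit. Their 2979 scores took only 1221 different values, and 1359 peaks (45.6%, 43.8 to 47.4) carried a score held by 5 or more of them. The most frequent score was 57.7, held by 82 peaks on 19 chromosomes with widths of 226 to 392 bp. Next came 63.39, held by 68 peaks on 18 chromosomes, all between 194 and 225 bp wide. Then followed 54.03 with 51 peaks, 52.43 with 35 and 75.97 with 32. Many of these regions could thus not be ranked against each other by score. The lone YAP5SA peaks repeated more, with 66.3% (65.3 to 67.3) at a score held by 5 or more, and the lone TEAD peaks less, with 33.7% (32.6 to 34.7). These shares depend on the number of peaks in a set as well as on their scores.

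Strong lone YAP peaks were mostly either very narrow or wide. In all, 61 lone peaks were at most 150 bp wide, shorter than the sonicated fragments, and had a median score of 90.2 (68.9 to 111). Another 321 were over 400 bp, with a median of 63.0 (54.5 to 77.1), and the 2597 between them had a median of 56.9 (53.5 to 62.6). Among the 68 lone peaks that scored 100 or more, 26 were narrow (38.2%, 26.7 to 50.8), 33 wide (48.5%, 36.2 to 61.0) and 9 in between. The 24 shared peaks with such scores held 1 narrow peak and 22 wide ones (91.7%, 73.0 to 98.97). Since 94.4% of all eligible YAP peaks were lone, most narrow strong peaks would be lone in any case. The narrow share was 38.2% of strong lone peaks and 4.17% of strong shared ones. The intervals of these shares (the other is 0.105 to 21.1) did not overlap, but the second rests on 1 peak. Over all scores the narrow shares were 2.05% of lone and 1.13% of shared peaks. The 3 narrowest lone peaks all measured 116 bp and had scores of 112, 84.3 and 131; one was chr17:9049155-9049270. The narrow peaks lay on 20 chromosomes. None of the 100 strongest lone TEAD peaks was as narrow (which allows a share of up to 3.62% by the same interval), against 30 of the 100 strongest lone YAP peaks (21.2 to 40.0). These strongest peaks stand at unlike scores: the 99th percentile was 685 for lone TEAD and 128 for lone YAP peaks. Of all lone TEAD peaks, 13.6% were up to 150 bp wide, with scores up to 132, so that list also held narrow peaks above 100. Lone YAP5SA peaks also had narrow ones among their 100 strongest, 11 (5.62 to 18.8), in a list where 39.3% of all lone peaks were that narrow, against 2.05% of lone YAP peaks.

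**Figure D2:**
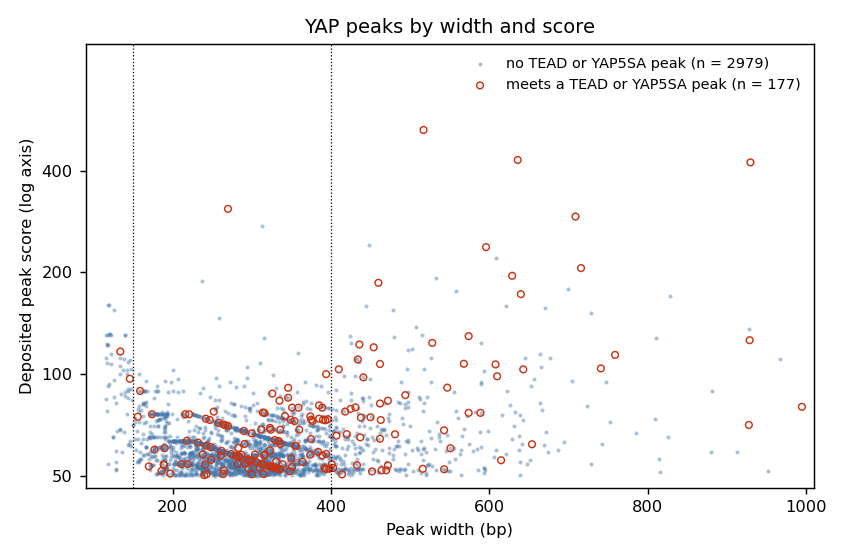
Deposited score (log axis) against width in bp for the 2979 lone YAP peaks (filled points) and the 177 shared ones (open circles), 1 point per peak; dotted lines mark 150 and 400 bp. Strong lone peaks stand at the left edge, up to 161, and among the wide peaks, and repeated scores form lines within the dense part.

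The 10 highest-scoring lone YAP peaks lay on 7 chromosomes. The highest, chr3:196625536-196625848, scored 274 over 313 bp and had its nearest TEAD peak 77.3 kb away. It was followed by chr11:1317888-1318335 (score 241, 448 bp), chr2:33141092-33141699 (221, 608 bp), chr6:170228966-170229498 (192, 533 bp) and chr13:44716208-44716444 (188, 237 bp). The next were chr2:495174-495873 (178, 700 bp), chr12:129787631-129788188 (177, 558 bp) and chr12:86896558-86897385 (171, 828 bp). The last 2, chr3:74371234-74371353 and chr4:43276139-43276256, both scored 161 and were 120 and 118 bp wide. Of these 10 regions 1, chr12:129787631-129788188, lay within 10 kb of a TEAD peak, at 928 bp. The nearest TEAD peak was 85.8 kb to 5499 kb away for the 8 others below the first. Of all 68 lone peaks that scored 100 or more, 5 lay within 10 kb of a TEAD peak. The share over all 2979 lone peaks was 5.47% (163 peaks), and 4.89% over the eligible sequence outside peaks.

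Strong lone peaks were frequent near the first or last listed base of their chromosome, a pattern noticed after the values were seen. That base is not always a chromosome end. On chromosome 14, the lone peak chr14:19041039-19041990 (952 bp) lay 0.0409 Mb from the first listed base. How many of the peaks counted below lie at such places was not determined. Of the 10 strongest, 4 lay within 3 Mb of the first or last base covered by a list on their chromosome. Of the 100 strongest, 20 did (20%, 12.7 to 29.2), against 177 of the other 2879 lone peaks (6.15%, 5.30 to 7.09) and 4.92% of the eligible sequence. The share was highest among wide lone peaks: 47 of the 321 over 400 bp lay there (14.6%, 10.96 to 19.0), against 2 of the 61 narrow ones (3.28%, 0.400 to 11.4) and 148 of the 2597 others (5.70%, 4.84 to 6.66). With a width limit of 500 bp the count among the 100 strongest was 11 (5.62 to 18.8). That interval holds the 6.15% of the other lone peaks, so with this limit the excess was no longer clear. Lone YAP5SA peaks showed a like share among their 100 strongest, 15 (8.64 to 23.5), while lone TEAD peaks showed 2 (0.243 to 7.04). Of the 100 strongest among the 177 shared YAP peaks, 8 lay there (3.52 to 15.2). Those 100 reach down to weaker peaks than the 100 strongest lone ones, since only 24 shared peaks scored 100 or more. From that score up, 15 of 68 lone YAP peaks and 3 of 24 shared ones lay there. With so few shared peaks, whether the pattern is particular to lone YAP peaks was not tested.

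Apart from the overlap that the rule removed, lone YAP peaks lay somewhat closer to TEAD peaks than other eligible sequence did. Distances were set beside those of evenly spaced windows in the 2620.8 Mb of eligible sequence, leaving out windows that overlap a TEAD or YAP5SA peak. The median distance from a lone YAP peak to the nearest TEAD peak was 198 kb (95% interval of the median 186 to 214, interquartile range 65.8 to 446), and 221 kb (74.0 to 535) for the windows, outside that interval. Within 1 kb of a TEAD peak lay 23 lone peaks (0.772%, 0.490 to 1.16), against 0.584% of the windows. Within 10 kb the count was 163 (5.47%, 4.68 to 6.35), against 4.89%. Within 100 kb it was 961 (32.3%, 30.6 to 34.0), against 30.8%. Up to here the share of windows lay inside the interval of the lone peaks. Farther out the lines parted, most at 447 kb, with 75.03% of lone peaks and 69.97% of windows, and they stood at 91.6% (90.6 to 92.6) and 89.8% at 1 Mb. Windows include sequence that cannot be mapped, where no peak can be called, so they are a rough background.

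Distances to the tagged mutant were closer to those of the windows. The median distance to the nearest YAP5SA peak was 109 kb (43.7 to 219) for lone YAP peaks and 110 kb (44.3 to 228) for the windows. Within 10 kb lay 193 lone YAP peaks (6.48%, 5.62 to 7.42), against 6.41% of windows. Within 100 kb lay 1401 (47.0%, 45.2 to 48.8), against 46.9%. Lone YAP peaks and lone YAP5SA peaks also had like distances to TEAD, with medians of 198 and 191 kb. The lone peaks of the YAP antibody were thus spaced from YAP5SA peaks as plain sequence was.

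**Figure D3:**
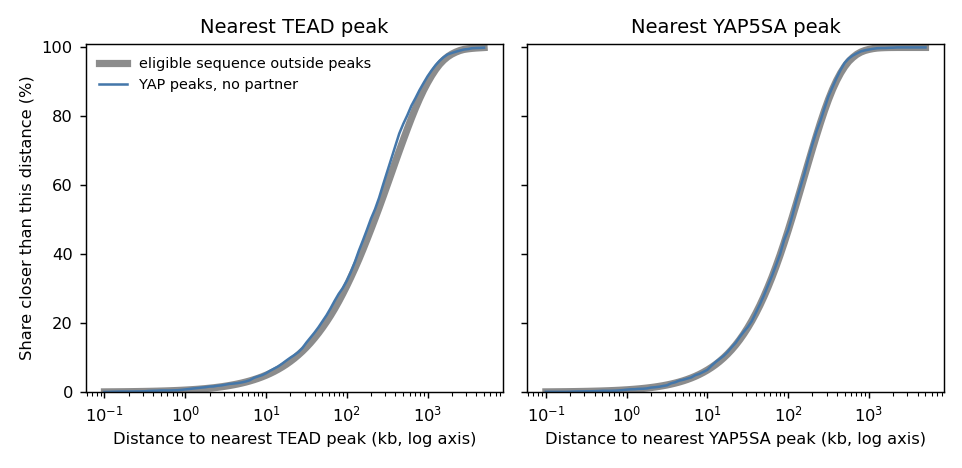
Share (%) of lone YAP peaks (thin line) and of eligible sequence outside peaks (thick grey line) closer to a TEAD peak (left) or a YAP5SA peak (right) than the distance in kb on the log axis. The lines run together for YAP5SA, and for TEAD the peaks run above, with 32.3% against 30.8% at 100 kb and 75.03% against 69.97% at 447 kb.

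Score hardly varied with the distance to TEAD. The 23 lone YAP peaks within 1 kb of a TEAD peak had a median score of 56.2 (53.1 to 62.6), the 140 from 1 to 10 kb 56.3, the 798 from 10 to 100 kb 57.6, the 1768 from 100 kb to 1 Mb 57.7 and the 250 beyond 57.7. Spearman's rho between score and distance was 0.0246 for TEAD and 0.0019 for YAP5SA over the 2979 peaks of 1 library, as a description. A lone YAP peak beside a TEAD peak was thus no stronger than one far from any.

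The 5 lone peaks nearest to TEAD stood 23 to 143 bp away and had low scores, from 50 to 60.1. After the chromosome 4 region they were chr1:45196441-45196753 (113 bp away), chr1:162115496-162115799 (116 bp), chr10:111366420-111366657 (133 bp) and chr6:43598313-43598620 (143 bp). The TEAD peaks beside them scored 54.9 to 219. The chromosome 4 region was a place where weak peaks of all lists came together, with scores of 54.1 for YAP, 57.6 for TEAD and 52.2 for YAP5SA, although the YAP peak touched neither. The lone peaks nearest to YAP5SA after it were chr3:183457665-183457866 (48 bp away), chr8:93501324-93501602 (182 bp), chr10:110108802-110109043 (217 bp) and chr6:39423446-39423881 (217 bp). Their YAP5SA neighbours scored 50.4 to 56.9, near the lowest score listed. The 5 shared peaks with the least overlap resembled them: besides the chromosome 8 region these were chr6:132188927-132189167 (21 bp of overlap), chr6:71031695-71031913 (41 bp), chr17:53252112-53252437 (45 bp) and chr5:43616432-43616753 (70 bp), and 4 of these 5 scored 52.6 to 54.1, with the chromosome 17 peak at 87.5.

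TEAD peaks near lone YAP peaks were ordinary ones. For the 163 lone peaks within 10 kb of TEAD, the nearest TEAD peak had a median score of 71.1 (57.6 to 111), and all TEAD peaks under the filters had 76.1 (60.4 to 134). TEAD peaks under the 155 shared YAP peaks that meet one had a median of 601 (172 to 1137). For YAP5SA the medians were 57.0 beside 193 lone YAP peaks, 57.0 over the list and 93.2 under 81 shared peaks. The shared values describe the peaks that the rule set aside.

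The wider surroundings differed between lone and shared YAP peaks. From 10 to 100 kb on both sides, which leaves out the overlapping peak itself, a lone YAP peak had 0.640 TEAD peaks on average, a shared one 3.37 and a window 0.577. From 100 kb to 1 Mb the means were 6.30, 10.9 and 5.78. YAP5SA peaks did not separate the sets in this way, with means of 0.622, 0.791 and 0.605 from 10 to 100 kb. Lone YAP peaks thus had slightly more TEAD peaks around them than the windows, and far fewer than shared YAP peaks. Because the split into lone and shared used overlap with TEAD, and TEAD peaks cluster, these values are a description.

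Lone YAP peaks lay inside TEAD clusters about as often as plain sequence did. Dense runs of enhancers, the super-enhancers of the series' title, are often built by joining nearby peaks. Under the filters TEAD peaks formed 509 groups of 3 or more, each within 12500 bp of the next. In all, 9 lone YAP peaks lay within the span of such a group (0.302%, 0.138 to 0.573), against 0.212% of the windows and 28 lone YAP5SA peaks (0.337%, 0.224 to 0.487). Of the shared YAP peaks 65 did (36.7%, 29.6 to 44.3), a share that overlap with TEAD favours. The 9 lone peaks were weak, with a median score of 54.0 and a highest of 69.6, at chr13:106752546-106752819, 1058 bp from the nearest TEAD peak.

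Most lone YAP peaks stood far from each other. With 12500 bp as the largest gap, 2817 of them stood alone (94.6%), and the median gap between neighbours was 580 kb. The other 162 (5.44%, 4.65 to 6.31) formed 79 groups of 2 or more, and 20 of the 2957 gaps were under 1 kb. Groups of 3 numbered 4, with 12 peaks in all (0.403%, 0.208 to 0.703). With gaps of up to 5 kb or 25 kb the share was 0.201% or 1.11%. The first 2 groups were compact, at chr5:180515748-180518435 (scores up to 94.97) and chr22:21678694-21680887 (up to 83.7), with TEAD peaks 5.62 and 9.85 kb away. The chromosome 5 group also holds a YAP peak of 1039 bp that scored 266 and was left out for its width alone, so this region, 0.333 Mb from the last listed base of the chromosome, was stronger than its members show. The others were chr2:132976403-132988575 (scores up to 63.2) and chr3:132231369-132240035 (up to 59.9). No TEAD or YAP5SA peak lay within any of the 4.

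Across the genome, lone YAP peaks were spread more evenly than lone TEAD peaks. They numbered 1.14 per Mb of eligible sequence, from 0.810 on chromosome 18 (95% Poisson interval 0.614 to 1.05) to 1.37 on chromosome 22 (1.01 to 1.82), a ratio of 1.69. For 18 of the 22 chromosomes the interval held the overall density; chromosomes 4, 13 and 18 lay below it and chromosome 5 (1.33, 1.16 to 1.51) above. Lone TEAD peaks ranged from 1.15 per Mb on chromosome 18 to 6.47 on chromosome 17, a ratio of 5.62, and lone YAP5SA peaks from 2.16 to 4.22, a ratio of 1.95. On chromosomes 17 and 19, where TEAD density was highest (6.47 and 5.68), lone YAP peaks stood at 1.24 and 0.963 per Mb. Lone YAP density thus varied over a much smaller range than TEAD density, on one of these chromosomes above its overall value and on the other below. Over the 22 chromosomes Spearman's rho of lone YAP density was 0.42 with lone TEAD and 0.54 with lone YAP5SA density, as descriptions, since the chromosomes share 1 library per list.

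**Figure D4:**
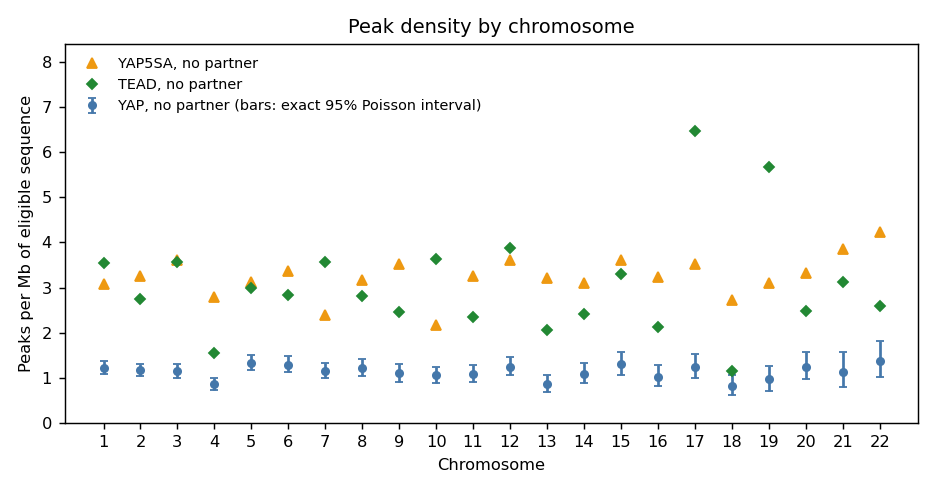
Lone peaks per Mb of eligible sequence on each of the 22 chromosomes for YAP (circles, with exact 95% Poisson intervals), YAP5SA (triangles) and TEAD (diamonds). YAP stays between 0.810 and 1.37, while TEAD reaches 6.47 on chromosome 17 and 5.68 on chromosome 19.

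Bins of 1 Mb showed the same at a finer scale. In 2576 bins the lone YAP peaks had a mean of 1.12 and a variance of 1.15 times the mean, where peaks placed independently and evenly give 1. The factor was 1.30 for lone YAP5SA peaks, with a mean of 3.16, and 6.77 for lone TEAD peaks, with a mean of 3.004. Since this factor grows with the mean, the variance beyond the Poisson value was also divided by the squared mean, giving 0.129 for lone YAP, 0.0963 for lone YAP5SA and 1.92 for lone TEAD peaks. By that measure lone YAP and lone YAP5SA peaks were both far more even than lone TEAD peaks, and YAP was not the more even of those 2. No bin held more than 7 lone YAP peaks, while one held 47 lone TEAD peaks. Spearman's rho across bins was 0.07 between lone YAP and lone TEAD counts and 0.00473 between lone YAP and lone YAP5SA counts, against 0.21 between shared YAP and lone TEAD counts. In 478 bins of 5 Mb the same coefficients were 0.18, 0.035 and 0.31. The split by overlap with TEAD favours the value for shared peaks, as TEAD peaks cluster. Bins share mappable sequence and the library of each list, and the counts per bin are low, so these coefficients are descriptions.

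**Figure D5:**
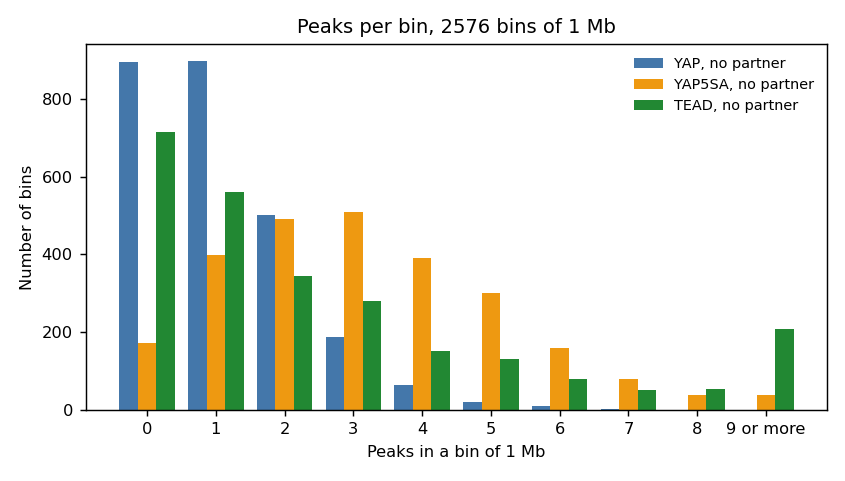
Number of 1 Mb bins, of 2576, by the lone peaks they hold, for YAP, YAP5SA and TEAD. Lone YAP counts fall off quickly and end at 7 per bin, whereas 208 bins hold 9 or more lone TEAD peaks.

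The fullest bins, singled out after their counts were seen, were 2 on chromosome 9 with 7 lone YAP peaks each, from 42 to 43 Mb and from 69 to 70 Mb. They lie on either side of the peak-free middle of that chromosome and also held 12 lone TEAD peaks each. Near such stretches between listed peaks the density was somewhat higher. It was 1.32 lone peaks per Mb from 2 to 5 Mb away (139 peaks, 1.11 to 1.56). It was 1.18 from 5 to 10 Mb (1.02 to 1.35) and 1.12 beyond or on chromosomes with none (1.08 to 1.17). The median scores of these classes were 57.0, 57.6 and 57.6. The intervals of these 3 densities overlap.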

How the data were processed

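Peak lists of the YAP, TEAD and Flag-Bio-YAP5SA libraries were analysed, 1 list and 1 library per group. Alignment was to hg19 with Bowtie2, per the submitters' processing notes. For every peak the deposited lists hold its position, a name starting with MACS and a score. This score was computed by the authors and is used here to rank and describe peaks. The sources used here do not give the caller's version, threshold or control. Which of the 3 YAP runs of the design text this is was not established. Read depth is unknown.

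Starts were read as counted from 0 and are printed counted from 1; 1 TEAD start below 0 was set to 0. The last peak on chromosome 1 ends at 249238330, beyond the last gene (248937099) of the GRCh38.p14 table, so that table and its promoter sequences were not joined to the peaks. Gene lists, start sites, motifs, GC content and sequences are therefore not reported here.

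Distances run between peak edges. Background windows of the members' median width were placed every 200 bp. Regions named are the 10 highest scores, the largest groups, and the 5 regions nearest to each border of the rule, besides those said to be chosen after their values were seen. The members, lists and settings were chosen with earlier results of these data known. Alternatives were other overlaps, score and width limits, stretch lengths and margins, group distances, centre distances and omission of chromosome 1. On simulated lists, 200 of 200 planted overlaps, 150 of 150 gaps and 150 of 150 group members were recovered, and 7734 of 7734 real distances equalled those of bedtools 2.31.1. Python 3.11.15, numpy 2.4.6, pandas 2.3.3, scipy 1.17.1 and matplotlib 3.10.9 were used.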

Additional observations from a re-analysis of the deposited data

Results flagged for a closer look

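Most YAP peaks outside chromosomes 1 to 22 also met no TEAD or YAP5SA peak. On chromosome X, 112 of 115 YAP peaks that passed the other filters overlapped no TEAD or YAP5SA peak (97.4%, 95% Clopper-Pearson interval 92.6 to 99.5), against 94.4% on chromosomes 1 to 22. On contigs and other sequences the count was 34 of 41 (82.9%, 67.9 to 92.8). The median score of those on chromosome X was 57.3 and their median width 307 bp, close to the 57.6 and 299 bp of the lone YAP peaks on chromosomes 1 to 22.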

How the results depend on the processing

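Across 12 alternative settings, 103 values of 11 results were recomputed; 86 stayed within 1.5 times the reported count or within the 95% interval of the reported value, and 17 did not. The number of lone YAP peaks was 1373 with YAP scores at or above the list's median and 1128 with scores of at least 60, by construction. Their share of eligible peaks was 92.7% and 91.6% in those settings, 93.1% with gaps under 1 kb counted as overlap and 96.1% with a reciprocal overlap of 50%. The median score was 63.9 and 66.2, and the median width 280 and 292 bp, in the 2 score settings, and 296 bp with a width limit of 500 bp. The median distance to TEAD was 185.5 kb where stretches of over 1 Mb counted as peak-free. The share in groups was 0.201% at 5 kb and 1.11% at 25 kb. Peaks of up to 150 bp made up 4.15% and 4.88% in the score settings. The share of the 100 strongest within 3 Mb of the first or last listed base fell from 20% to 11% with a width limit of 500 bp. The median distance to YAP5SA, the share within 100 kb of TEAD and the ratio of chromosome densities stayed inside their intervals in all settings run. The settings for the share within 100 kb, for the first and last listed bases and for narrow peaks were added after seeing the data. The alternatives for start sites, motifs and GC content were not run, since they need the sequence and gene models of hg19. No paired analysis was possible because only 1 library stands for each group. Depth is unknown, so a missing TEAD or YAP5SA peak says only that none was listed.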
